A study of Mus musculus with 2 samples.

Results

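Clade B serpins, kallikreins, stefins and the Kazal-type inhibitor Spink5 were followed through 2 rhabdoid tumors of mice. Members were the protein-coding genes of the count table with a symbol that starts with Serpinb, Klk or Stfa followed by a digit, plus Spink5, a rule by name that was set with earlier results of these data known. This gave 57 of the 55416 genes in the table. They were 11 Serpinb genes of chromosome 1, 15 Serpinb genes of chromosome 13, the 12 genes Klk4 to Klk15 and the 14 genes Klk1 and Klk1b of chromosome 7, 4 Stfa genes of chromosome 16, and Spink5.

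The study asked whether primordial germ cells can give rise to rhabdoid tumors of the MYC subgroup. It crossed mice with floxed Smarcb1, the chromatin remodeling subunit that rhabdoid tumors lose, to mice that express Cre recombinase from Dppa3, a gene active in primordial germ cells. Both tumors arose in Dppa3-cre::Smarcb1 fl/+ mice, in which Cre is knocked in at Dppa3 behind an IRES, 1 Smarcb1 allele is floxed and the wild-type allele is lost at a time that is not controlled, on a C57BL/6 background. Both were classified as MYC. The tumor labelled intracranial lay at the trigeminal nerve, and the tumor labelled extracranial was facial and maxillary. Each location is 1 tumor and 1 library, and no library of normal tissue or of another genotype was analysed here, so a difference between locations cannot be told apart from a difference between these 2 tumors and their dissection. The ages of the animals were not given in the labels.

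The libraries held 34545846 counts over 29670 genes (intracranial) and 26915696 counts over 27252 genes (extracranial). Smarcb1 had 365 and 530 counts, which, with no library of another genotype beside them, does not check the labels. The study marked extracranial rhabdoid tumor cells by 5 genes (Tnn, C1qtnf3, Prelp, Tlx2 and Postn), compared in single tumor cells of other Cre models. In these bulk libraries they ran against the labels, with higher levels in the library labelled intracranial for 5 of 5 and by over 4-fold for 4. Whether they mark location in bulk tissue of this model was not tested. Directions therefore refer to the library labelled intracranial and the library labelled extracranial. Markers of stratified squamous epithelium stood apart in the same direction, with 18 of 20 called higher in the library labelled intracranial and a summed level of 26902 CPM (counts divided by the scaled library size, in the customary unit) against 13.53 CPM. Keratin 5 (Krt5) had 25883 and 0 counts, and the epithelial regulator Trp63 had 1284 and 0. In the library labelled extracranial 7 of the 20 exceeded 3 counts, with Dsc3 highest at 156. The part of epithelium carried in the sample in the results on the members was not tested, and in bulk tissue fewer cells of a type and less RNA per cell cannot be told apart.

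Clade B serpins are protease inhibitors that mostly stay inside the cell. They trap serine or cysteine proteases with a reactive loop, and in the mouse their genes sit in separate clusters on chromosomes 1 and 13. Kallikreins are secreted serine proteases of a single cluster on chromosome 7. In stratified epithelium Klk5, Klk7 and Klk14 cut the desmosomal proteins that hold the outermost cells, and the multidomain inhibitor LEKTI, the product of Spink5, restrains them. The Klk1 and Klk1b genes are an expansion of glandular kallikreins best known from the salivary gland. Stefins, the products of the Stfa genes, inhibit cysteine cathepsins and are known from neutrophils and from skin.

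Of the 57 members, 34 had 10 or more counts over both libraries with more than 3 in at least 1, and only these were given a ratio. Each ratio, intracranial over extracranial after scaling for library size, carries an exact 95% interval that covers counting error only. A gene was called where its whole interval lay beyond 4-fold. For a gene at 0 in a library the fold is given as the lower limit of its interval, written as at least N-fold, and for a gene with 1 to 3 counts as the ratio of the counts as they stand. For medians of lists and in plots, counts of 3 or fewer were set to 3 per library, and such values are not bounds. With 1 library per location there is no replicate check and no p-value.

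Of the 34 members with a ratio, 23 were called higher in the library labelled intracranial and 1, Klk1b22, was called lower there. Over all 21977 genes with a ratio, 5.41% were called higher in the library labelled intracranial, against 1.78% called higher in the library labelled extracranial. Among protein-coding genes with a ratio the shares were 6.83% and 2.11%. The median log2 ratio was 4.54 for the members (range -3.25 to 10.63) and 0.04 for all genes, with counts of 3 or fewer set to 3. The members' median was 7.14 over those with 100 or more counts. Of all 57 members, 34 exceeded 3 counts in the library labelled intracranial, compared with 13 in the library labelled extracranial. Among them, 25 were at 0 in the library labelled extracranial while counted in the other, and 10 were at 0 in both.

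Summed over all 57 members, the level was 1768 CPM in the library labelled intracranial and 385.8 CPM in the library labelled extracranial, a ratio of 4.582 (4.488 to 4.679). Serpinb6a alone made 26.1% of the first sum and 81.7% of the second. The library labelled extracranial held mainly this single member, whereas the other also spread counts over the Serpinb genes of chromosome 1 and Klk4 to Klk15. The 23 members without a ratio together had 34 and 6 counts.

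**Figure D1:**
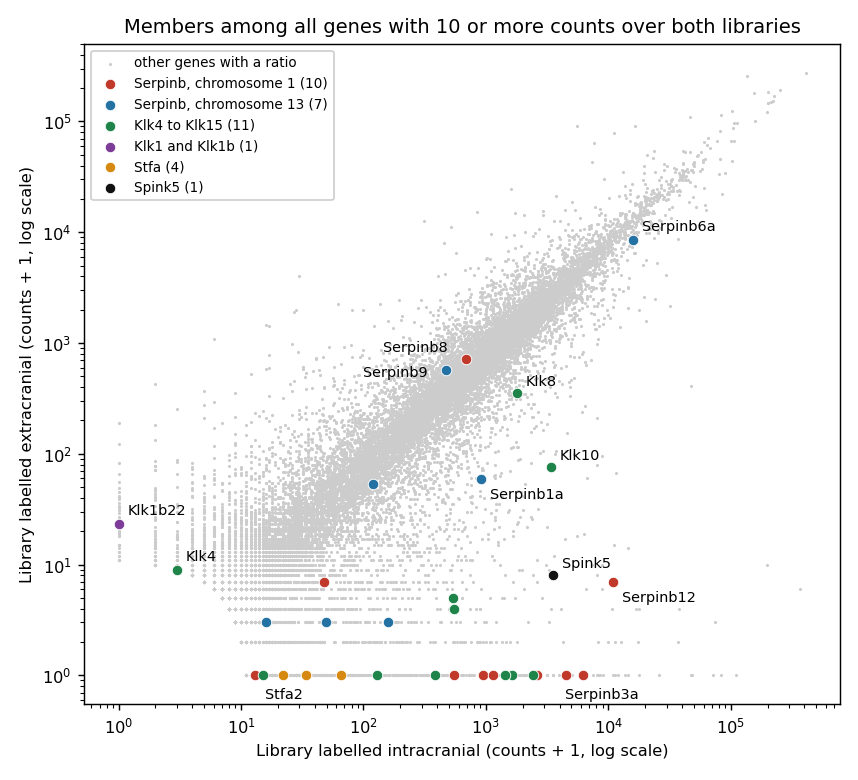
Counts + 1 of each gene in the library labelled intracranial (x axis) and the library labelled extracranial (y axis), both log scales, for genes with 10 or more counts over both libraries; grey points are other genes and colored points the 34 members with a ratio, by family. Most members lie along the lower edge, at or near 0 counts in the library labelled extracranial, while Serpinb6a, Serpinb8 and Serpinb9 lie within the band of other genes and Klk1b22 lies at the left edge.

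The Serpinb cluster of chromosome 1 gave the highest summed level of any family here in the library labelled intracranial. Of its 11 genes, 7 were called higher in the library labelled intracranial, 3 had a ratio that was not called, and Serpinb3d, with 2 and 0 counts, had none. The family median log2 ratio was 8.06. The summed level was 795.6 CPM against 26.98 CPM, a ratio of 29.49 (27.39 to 31.79), and 98.3% of the lower sum was Serpinb8.

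Windows of 120 bases upstream of the annotated start are shown for 5 of the 7 chromosome 1 genes that were called. These 5 are the called genes of the cluster with TATAAA within 250 bases, and Serpinb5 and Serpinb11 are not shown. Windows are also shown for Serpinb8, their neighbor with nearly equal counts in both libraries, and for Serpinb6a of chromosome 13, the most abundant member of the library labelled extracranial. They come from RefSeq on build GRCm38.p6 and read 5′ to 3′ on the strand of the gene. Capitals mark matches on either strand to the TATA box TATAAA, the AP-1 motif TGANTCA (its own reverse complement) or the GC box GGGCGG, and no matches shown overlap. The windows are chr1:107052304-107052423 (- strand) for Serpinb3a, chr1:107161115-107161234 (- strand) for Serpinb3b, chr1:107278372-107278491 (- strand) for Serpinb3c, chr1:107511303-107511422 (+ strand) for Serpinb2, chr1:106934329-106934448 (+ strand) for Serpinb12, chr1:107589886-107590005 (+ strand) for Serpinb8 and chr13:34002795-34002914 (- strand) for Serpinb6a. Serpinb2, Serpinb12 and Serpinb6a have a further annotated start that is not shown.
Serpinb3a: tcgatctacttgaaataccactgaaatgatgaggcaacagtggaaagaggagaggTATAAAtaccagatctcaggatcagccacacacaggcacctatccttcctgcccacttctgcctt
Serpinb3b: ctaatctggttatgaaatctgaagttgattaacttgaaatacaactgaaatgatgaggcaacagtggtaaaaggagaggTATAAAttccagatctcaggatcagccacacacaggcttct
Serpinb3c: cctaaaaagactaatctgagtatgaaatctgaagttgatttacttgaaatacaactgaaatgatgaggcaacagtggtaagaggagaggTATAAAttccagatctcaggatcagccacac
Serpinb2: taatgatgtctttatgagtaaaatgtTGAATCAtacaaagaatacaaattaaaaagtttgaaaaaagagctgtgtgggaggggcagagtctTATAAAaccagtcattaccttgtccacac
Serpinb12: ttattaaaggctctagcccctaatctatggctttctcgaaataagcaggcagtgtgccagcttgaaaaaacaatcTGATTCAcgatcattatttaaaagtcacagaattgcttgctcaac
Serpinb8: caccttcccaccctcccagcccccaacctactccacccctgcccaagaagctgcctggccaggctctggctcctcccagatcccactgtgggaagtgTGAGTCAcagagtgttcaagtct
Serpinb6a: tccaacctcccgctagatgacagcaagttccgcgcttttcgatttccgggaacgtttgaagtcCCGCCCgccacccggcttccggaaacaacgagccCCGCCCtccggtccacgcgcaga

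Within 250 bases upstream of a start, TATAAA was found for 7 of the 10 chromosome 1 genes with a promoter in the table, for 1 of 14 chromosome 13 genes and for 9 of 54 members in all. The share over all 32851 mouse promoters was 12.4%. Shares over all promoters count each promoter, whereas a member gene counted if any of its starts had a match. TGANTCA was found for 6 of the 10 chromosome 1 genes, for 0 of 14 chromosome 13 genes and in 6.75% of all promoters. The TATAAA match began 29 bases before the start in Serpinb2, 31 in Serpinb3c, 41 in Serpinb3b and 65 in Serpinb3a, but 220 in Serpinb12, outside the window shown. Matches and calls did not coincide in every gene, since Serpinb8 and Serpinb7 hold TGANTCA and were not called, and Serpinb3d holds TATAAA with 2 counts. Serpinb5 and Serpinb11 were called and hold TGANTCA but no TATAAA. Over the 21 members called higher in the library labelled intracranial with a promoter, 5 hold TATAAA. The windows of Serpinb3a, Serpinb3b and Serpinb3c share a run of 24 bases, whereas no run over 6 bases is common to these and Serpinb3d. The motifs were picked after the values of the members were known, and a match describes letters only.

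Serpinb12, an inhibitor of trypsin-like proteases in epithelia, had 10982 counts in the library labelled intracranial, but 6 in the library labelled extracranial. Its ratio was 1410 (647.4 to 3842). At 126.5 CPM per kilobase of exon it was the most abundant member of the library labelled intracranial, 4.634 times Serpinb5 on that scale.

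Serpinb3a to Serpinb3d are the mouse counterparts of the human squamous cell carcinoma antigens, inhibitors of cathepsins and serine proteases. Serpinb3a had 6180 and 0 counts (a ratio of at least 1290), Serpinb3c 4487 and 0 (at least 936.4-fold) and Serpinb3b 552 and 0 (at least 114.9-fold). Per kilobase in the library labelled intracranial, Serpinb3a exceeded Serpinb3c 1.401-fold (1.348 to 1.456) and Serpinb3b 11.59-fold (10.62 to 12.66). The paralogs, 83.7% to 86.6% identical in protein, thus differed in level by over 10-fold within 1 sample, and Serpinb3d was near 0. Of their windows of 72 bases, the read length, 8.46% (Serpinb3a), 3.03% (Serpinb3b) and 2.96% (Serpinb3c) also occur in another gene, so reads from these stretches cannot be assigned.

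The non-inhibitory serpin Serpinb5 (maspin) had 2609 and 0 counts (at least 544.3-fold). The urokinase inhibitor Serpinb2 (PAI-2) had 1141 and 0 counts (at least 237.8-fold), and Serpinb11 had 942 and 0 (at least 196.3-fold). All 3 were at 27.11 CPM or more in the library labelled intracranial and undetected in the other, where 0 counts allow up to 0.138 CPM. Serpinb7 (megsin), with 47 and 6 counts, had a ratio of 6.033, but its interval of 2.574 to 17.27 reached below 4-fold. Serpinb13 (headpin), a cathepsin inhibitor of keratinocytes, had 12 and 0 counts (at least 2.14-fold, not called).

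Serpinb8, an inhibitor of furin, was the exception within the cluster. With 692 and 710 counts it was the only chromosome 1 member whose interval, 0.675 to 0.8346 around a ratio of 0.7506, lay wholly below 1. By protein it stood closest to Serpinb6a of chromosome 13 (61.8% identity) rather than to any gene of its own cluster. Furin, its known target, had 4774 and 2707 counts and was not called.

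**Figure D2:**
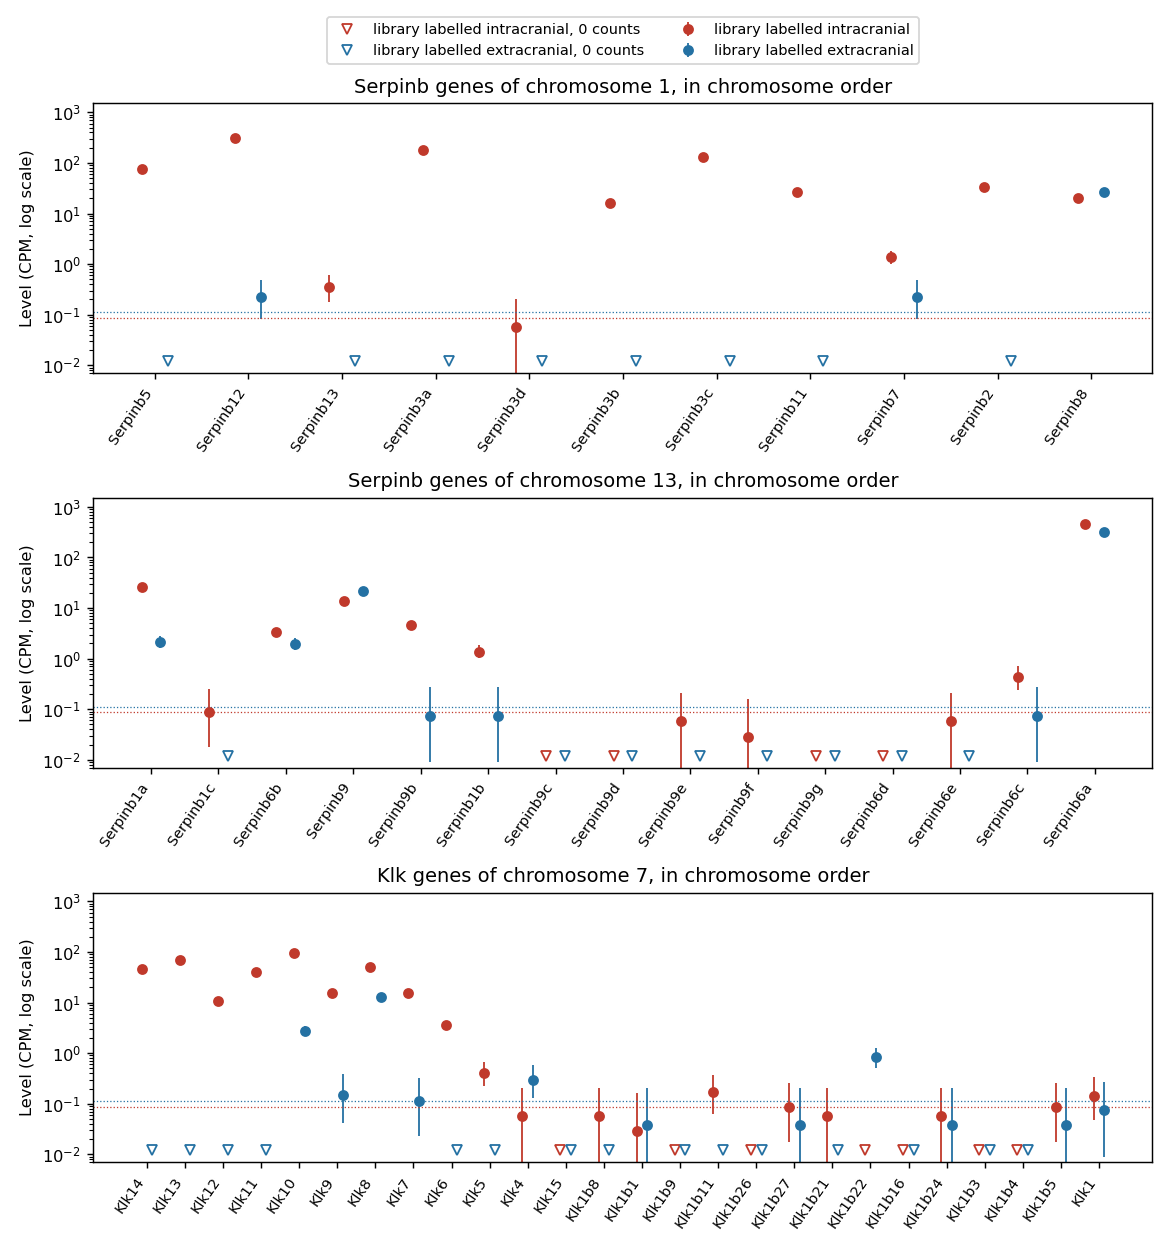
Level of each Serpinb gene of chromosomes 1 and 13 and each Klk gene in CPM (log scale), placed in chromosome order and evenly spaced, with exact 95% intervals as bars; red, library labelled intracranial; blue, library labelled extracranial; open triangles, 0 counts; dotted lines, the level of 3 counts in each library. On chromosome 1, from Serpinb5 to Serpinb2, the red points lie above the blue marks, which are at 0 counts except for Serpinb12 and Serpinb7 at 6 counts each, and at Serpinb8 the libraries meet; Klk14 to Klk7 are high in red and the Klk1b genes are near the dotted lines.

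The Serpinb cluster of chromosome 13 differed far less between the libraries. Of its 15 genes, 7 had a ratio, 3 of them were called higher in the library labelled intracranial and none in the other. The summed level was 511.9 CPM against 341.1 CPM (ratio 1.501, 1.463 to 1.539). Without Serpinb6a, which made 90.3% and 92.5% of these sums, it was 49.76 CPM against 25.67 CPM (1.938, 1.773 to 2.12).

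Serpinb6a, a widely expressed inhibitor of serine proteases, had 16059 and 8440 counts, or 462.2 and 315.4 CPM. It was high in both libraries, ranking 3 and 1 among the members per kilobase, and its ratio was 1.465 (1.427 to 1.505). Serpinb9, the inhibitor of granzyme B that protects cells from their own cytotoxic granules, had 476 and 571 counts and a ratio of 0.642 (0.5673 to 0.7263). Like Serpinb8, it was slightly lower in the library labelled intracranial and not called.

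The 3 called genes were Serpinb1a, Serpinb9b and Serpinb1b. Serpinb1a, an inhibitor of neutrophil elastase and related proteases, had 905 and 58 counts and a ratio of 12.02 (9.21 to 15.95). Serpinb9b, with 158 and 2 counts, stood at a log2 ratio of 5.93 from the counts as they stand (4.05 to 8.99) and 5.34 with 2 set to 3. Serpinb1b, with 48 and 2, stood at 4.21 (2.28 to 7.29) and at 3.62 with 2 set to 3. Serpinb6b, with 119 and 52 counts, was not called (1.762, 1.262 to 2.491), nor was Serpinb6c with 15 and 2. The remaining 8 genes of the cluster had 3 counts or fewer in both libraries, and 4 of them had none.

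Among Klk4 to Klk15, 8 genes were called higher in the library labelled intracranial, none in the other, and Klk15 was at 0 in both. The median log2 ratio over the 11 genes with a ratio was 6.62. Their summed level came to 353.2 CPM against 16.48 CPM, a ratio of 21.43 (19.49 to 23.62). Klk10 made 27.7% of the first sum, whereas Klk8 made 79.6% of the second.

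Klk14, a trypsin-like protease of the skin surface, had 1629 and 0 counts (ratio of at least 339.7). Next to it on the chromosome, Klk13 had 2426 and 0 (at least 506.1-fold), Klk12 had 382 and 0 (at least 79.37-fold) and Klk11 had 1421 and 0 (at least 296.3-fold). These 4 adjacent genes were all undetected in the library labelled extracranial. Farther along, Klk9 had 535 and 4 counts (ratio 103, 40 to 379.4) and Klk6 had 127 and 0 (at least 26.13-fold).

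Klk7, the chymotrypsin-like enzyme that cuts corneodesmosin, had 550 and 3 counts and a ratio of 141.2 (48.06 to 686.7). Klk5, the trypsin-like protease held to start the cascade, had 14 and 0 counts and was not called (at least 2.555-fold). The gap between cascade members was thus wide within 1 library. Per kilobase in the library labelled intracranial, Klk14 exceeded Klk5 122.3-fold (72.68 to 224.2), Klk13 exceeded it 100.8-fold (59.95 to 184.6) and Klk10 236.3-fold (140.6 to 432.7).

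Klk10 and Klk8 were the kallikreins detected well in both libraries. Klk10 had 3400 and 75 counts, 97.85 and 2.803 CPM, and was called (34.91, 27.77 to 44.5). Klk8 (neuropsin), a protease of skin and of neurons, had 1787 and 351 counts, 51.43 and 13.12 CPM. Its ratio of 3.921 (3.495 to 4.409) straddled the 4-fold limit, and it was not called. Per kilobase Klk8 was second only to Serpinb6a among the members of the library labelled extracranial. Of 12 markers of neurons and Schwann cells, 1 was called higher in the library labelled intracranial, 2 were called lower, with summed levels of 141.4 and 255.7 CPM, and their part in the level of Klk8 was not tested.

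Klk4, the protease that clears enamel matrix in the forming tooth, was at the lower limit with 2 and 8 counts, and its log2 ratio from the counts as they stand, -2.38 (-5.65 to -0.05), was not called. With 2 set to 3 it was -1.79. Of 10 genes of enamel and dentin matrix, 3 had a ratio and 1 was called, higher in the library labelled extracranial. The summed level of all 10 was 6.274 CPM against 152.3 CPM. The called gene was Dmp1, of dentin and bone matrix, with 29 and 3988 counts. The enamel proteins Amelx, Ambn and Enam and the enamel protease Mmp20 had at most 1 count in either library.

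**Figure D3:**
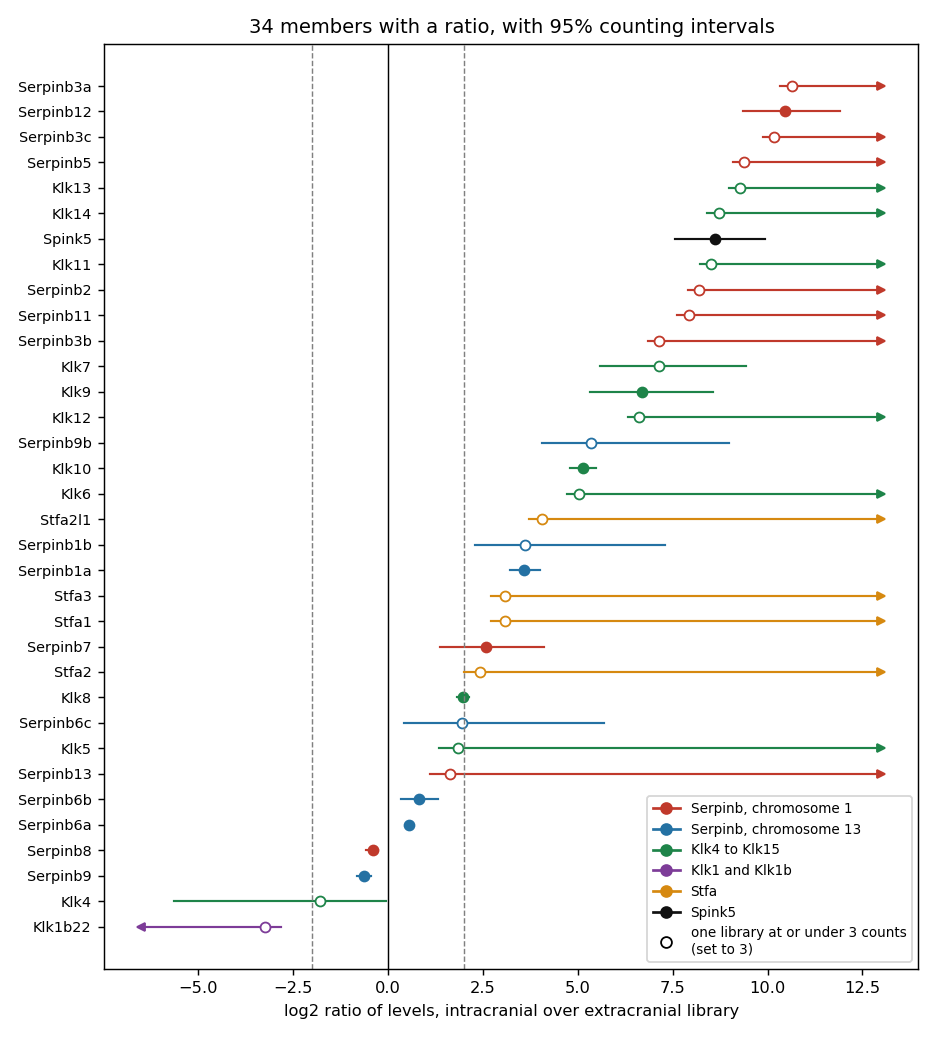
Log2 ratio of levels, intracranial over extracranial library, for the 34 members with a ratio, ordered by ratio and colored by family; bars are exact 95% counting intervals, arrows mark intervals open to one side, open circles mark genes with 3 counts or fewer in a library (set to 3), and dashed lines mark 4-fold in each direction. Members called higher in the library labelled intracranial have their whole bar right of the right dashed line, from Stfa2 at its edge to Serpinb3a, and only Klk1b22 lies wholly left of the left dashed line.

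The glandular kallikreins were near 0 in both libraries, apart from Klk1b22. The 14 genes Klk1 and Klk1b together had 24 counts in the library labelled intracranial, against 28 in the library labelled extracranial, and their summed ratio of 0.6601 (0.3663 to 1.181) included 1. Of the 28 counts, 22 belonged to Klk1b22, a kallikrein long listed among the epidermal growth factor-binding proteins of the mouse salivary gland. Undetected in the library labelled intracranial (0 counts), it was at least 7.113-fold higher in the extracranial one, and no other member was called in that direction. Only 0.765% of its 72-base windows occur in another gene. The other 13 genes had at most 6 counts in a library, 5 of the family were at 0 in both, and Klk1 itself had 5 and 2.

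Markers of salivary and nasal glands were nevertheless higher in the library labelled intracranial, with a summed level of 2673 CPM against 25.26 CPM. Of the 18 markers, 12 had a ratio, and of these 7 were called higher in the library labelled intracranial and none in the other. The gel-forming mucin Muc5b, with 83812 and 0 counts, made 90.2% of the first sum. Dcpp1 (890 and 1 counts), Dcpp2 (721 and 0) and Dcpp3 (659 and 1), also of this list, were called higher in the library labelled intracranial. Aqp5, with 653 and 529 counts, was not called and made 78.3% of the second sum. The salivary secretory genes Prol1 and Pip and the submandibular gene Ren1 were at 0 in both libraries, and Smr2 had 2 and 7 counts. The part of gland tissue in the level of Klk1b22 was not tested.

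Spink5 had 3550 and 7 counts, or 102.2 and 0.2616 CPM, a ratio of 390.6 (189.4 to 972.1). Set against the proteases it restrains, per kilobase in the library labelled intracranial, Spink5 was 70.8 times Klk5 (42.14 to 129.6) and 2.556 times Klk7 (2.336 to 2.801), but 0.5789 times Klk14 (0.5457 to 0.6142). By RNA level Spink5 therefore lay above Klk5 and Klk7 and below Klk14, and protein was not measured. Of 12 other Kazal-type inhibitors, only 2 had a ratio. Of these, 1 was called higher in the library labelled intracranial, Spink4 with 27 and 0 counts, and none in the other. Spink2 had 589 and 246 counts and was not called.

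All 4 Stfa genes were called higher in the library labelled intracranial, at low levels. Stfa2l1 had 65 and 0 counts (at least 13.19-fold), Stfa1 and Stfa3 each had 33 and 0 (at least 6.512-fold) and Stfa2 had 21 and 0 (at least 4.01-fold). Together they came to 152 and 0 counts, 4.374 CPM in the library labelled intracranial, the lowest sum of any family but Klk1 and Klk1b. This limit of Stfa2 barely passed 4-fold, and the call was lost under DESeq2 size factors and under upper quartile scaling. Stfa2l1 and Stfa2 are 95.1% identical in protein, and 10% of the windows of Stfa1 also occur in BC100530, so that counts of single stefins are uncertain.

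Of 15 neutrophil markers, 11 had a ratio. Of these, 8 were called higher in the library labelled intracranial and none in the other. Summed over all 15, the levels were 1068 and 150.8 CPM. The alarmins S100a8 (8970 and 9 counts) and S100a9 (14455 and 13), which stratified epithelium also makes, were highest per kilobase in the library labelled intracranial. Mmp9, with 11078 and 2429 counts, was not called and made 60.2% of the second sum. Retnlg had 306 and 0 counts. The granule genes Mpo (0 and 0) and Elane (1 and 0) and the surface marker Ly6g (4 and 1) were at or near 0. The receptor Csf3r, with 692 and 1542 counts (0.3456, 0.3155 to 0.3783), and the granule protease Prtn3, with 6 and 11, were not called and had the opposite sign. The part of neutrophils in the stefin levels was not tested. Other stefin-like genes of the list of 17 other cystatins followed the same direction, with Csta1 at 1145 and 0 counts, BC100530 at 111 and 0 and BC117090 at 30 and 0, whereas the related and widely expressed Cstb had 4933 and 3582 counts and was not called.

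Most genes listed as partners of the kallikreins differed in the same direction. The list of 22 held activators, inhibitors, substrates and receptors of the cascade, together with cornification genes such as Tgm1, Tgm3, Casp14 and Asprv1. Of the 22, 19 were called higher in the library labelled intracranial, 1 was called lower, and the median log2 ratio was 5.07. Among the desmosomal substrates, Cdsn (corneodesmosin) had 2248 and 0 counts, Dsg1a had 2382 and 0, and Dsc1 had 1842 and 0. Activating membrane proteases included St14 (matriptase), with 677 and 21 counts, and Prss8 (prostasin), with 272 and 1. The elastase and kallikrein inhibitor Slpi had 11137 and 14 counts (ratio 612.6, 365 to 1121). F2rl1, the receptor PAR2 that trypsin-like kallikreins cleave, was not called, with 11388 and 5578 counts.

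Cst6 (cystatin M/E), the inhibitor of legumain and cathepsins in the epidermis, was the 1 gene of this list called higher in the library labelled extracranial. It had 1505 and 6823 counts and a ratio of 0.1699 (0.1605 to 0.1797). Its target Lgmn (legumain), which macrophages also make, had 15605 and 27242 counts and was not called. All 12 macrophage markers had lower levels in the library labelled intracranial, 1 of them called, with summed levels of 6744 CPM against 14978 CPM. Their part in the level of Lgmn was not tested.

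Of 15 proteases that clade B serpins inhibit, 12 had a ratio. Of these, 1 was called, Ctsk (cathepsin K), higher in the library labelled intracranial with 19658 and 2575 counts, and none in the other direction. Over all genes with a ratio, 5.41% were called higher in the library labelled intracranial. The median log2 ratio over the 12 with a ratio was -0.42. Of 10 cysteine cathepsins, the enzymes that stefins inhibit, again Ctsk alone was called, and the median was -0.80. Cathepsin L (Ctsl) had 16187 and 6522 counts and urokinase (Plau) 13630 and 14119, with neither called, while neutrophil elastase (Elane) and cathepsin G (Ctsg) had at most 1 count. Granzyme B (Gzmb), the target of Serpinb9, had 25 and 74 counts and was not called (0.2602, 0.1584 to 0.4144). Of 12 markers of T and NK cells, Gzmb among them, 4 were called higher in the library labelled extracranial and none in the other, with summed levels of 14.59 and 47.01 CPM, and their part in the level of Gzmb was not tested.

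Inhibitors of other families divided. Of 35 serpins outside clade B, 21 had a ratio. Of these, 2 were called higher in the library labelled intracranial, beside 5.41% of all genes with a ratio, and none in the other. Their median log2 ratio was 0.06. The abundant Serpinf1 (31141 and 22230 counts) and the collagen chaperone Serpinh1 (15097 and 11153) were not called. Of 15 WAP-domain inhibitors, Slpi included, 9 had a ratio. Of these, 7 were called higher in the library labelled intracranial and none in the other. Among the 7 were Wfdc12 with 3167 and 0 counts, Wfdc2 with 1501 and 0 and Wfdc5 with 877 and 0. Wfdc17, known from macrophages, was not called, with 982 and 1809 counts.

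**Figure D4:**
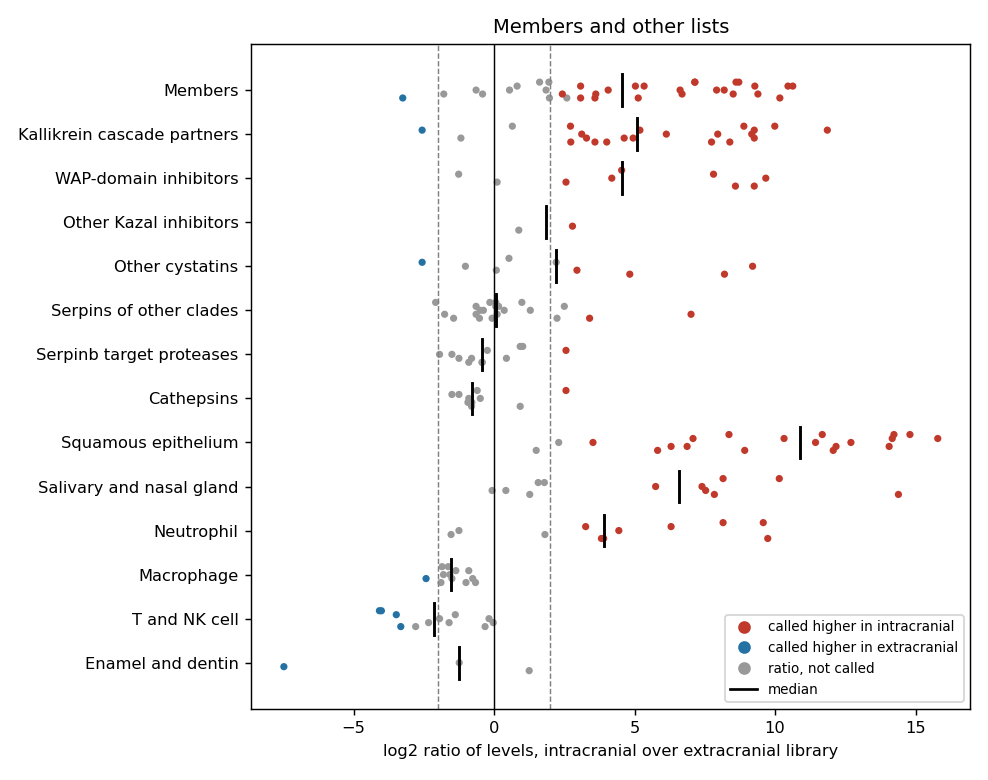
Log2 ratio of levels, intracranial over extracranial library, for each gene with a ratio in the members, in the lists of partners, inhibitors and proteases, and in the lists of cell type markers; red, called higher in the library labelled intracranial; blue, called higher in the library labelled extracranial; grey, not called; black ticks, list medians; dashed lines, 4-fold. The median stands at 4.54 for the members and 5.07 for the list of cascade partners, which includes cornification genes. It is near 0 for serpins of other clades (0.06) and below 0 for target proteases (-0.42).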

How the data were processed

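The deposited values are raw counts of reads for each Ensembl gene in both tumors, not normalized. Per the labels and the study's methods, the authors made directional libraries from poly(A) RNA. Single reads were then mapped to GRCm39 by STAR 2.7.9a, and featureCounts assigned them to genes. Whether strand was used and how reads with several alignments were treated is not given in the sources used here, so counts of overlapping, antisense and near-identical genes are uncertain.

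Symbols, biotypes, exon lengths and gene order came from release 21 of the mouse GENCODE annotation, older than the authors' build, and no gene coordinates were taken from it. Protein identity was computed on translations of its transcripts. Promoters came from RefSeq (GRCm38.p6), where 54 of 57 members had an entry. Serpinb1a, Serpinb13 and Spink5 had none. The TATA box, AP-1 motif, GC box and CCAAT box were searched on both strands, and the CCAAT box is not described further.

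Library sizes were scaled by TMM in edgeR 4.0.16 (R 4.3.3), with factors of 1.0058 and 0.9942. Levels are CPM with exact Clopper-Pearson 95% intervals, and ratios carry conditional exact binomial 95% intervals. Because the reads carry no molecular identifiers, they are not independent molecules, and all intervals and floors cover counting error alone. A gene with fewer than 10 counts over both libraries, or 3 or fewer in each, was given no ratio. Samples were grouped by the localization label. With 1 library per location no replicate test could be fitted.

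Members with 1 CPM or more in a library were named with their counts, and lower ones by count and range or, where 5 or fewer, by name. Serpinb3d, Serpinb6c, Serpinb13, Klk1, Klk1b22, Klk4, Klk5, Klk15, Stfa1, Stfa2 and Stfa3 were named in this second way, as groups of 5 or fewer within a family. From other lists, called genes with 10 CPM or more and defining markers at or near 0 could be named, and others named beside them were chosen after their values were seen. The members and all lists were chosen with earlier results of these data known. Alternatives were DESeq2 1.42.0 size factors, total counts, upper quartile scaling, other limits on counts and folds, a prior count, near-identical members summed, CPM without length, and Serpinb10 counted as a member, which was added after seeing the data.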

Additional observations from a re-analysis of the deposited data

How the results depend on the processing

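No paired analysis was possible because there is 1 library for each location, and for the same reason no library could be left out. Of 97 comparisons of a result with an alternative, 87 kept their direction and stayed within the limits set for a change. Upper quartile scaling gave a log2 ratio of the summed level of 2.16 for all members (2.20 as reported) and 0.55 for the Serpinb genes of chromosome 13 (0.59). With no minimum on counts over both libraries, only Klk1 and Klk1b11 entered, since members at or under 3 counts in each stayed out. The median log2 ratio of all members was then 3.84 (4.54). With a minimum of 100 counts it was 7.14, and that of the Serpinb genes of chromosome 13 was 0.82 (1.95), because fewer genes enter. The value for Klk1 and Klk1b, -3.25, rests on Klk1b22 alone. It turned to 0.36 with no minimum on counts over both libraries and was -1.11 with near-identical members summed. A minimum of 100 counts left 0 members called higher in the library labelled extracranial and removed the calls of Serpinb1b, the 4 Stfa genes and Klk1b22. An interval beyond 2-fold added Serpinb13, Serpinb7, Klk8 and Klk5, and a ratio beyond 4-fold with no interval added Serpinb7. DESeq2 size factors and upper quartile scaling each removed Stfa2, and total counts changed no call. Depth limits a member at 0 counts to 0.106 CPM (intracranial) and 0.138 CPM (extracranial).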

Other observations

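Serpinb10, which lies between Serpinb2 and Serpinb8 on chromosome 1, was no member because the annotation calls it a polymorphic pseudogene. It had 418 and 2 counts in the libraries labelled intracranial and extracranial, a log2 ratio from the counts as they stand of 7.33 (5.47 to 10.38), or 6.75 with 2 set to 3, the direction of its neighbor Serpinb2. Of the 72-base windows of Serpinb2, 9.25% also occur in Serpinb10. The other 12 matching rows that are not protein-coding were pseudogenes with at most 4 counts in a library.

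Outside the member families, some genes of the lists of partners and other inhibitors also had counts in the library labelled intracranial alone. Fetub (fetuin B), a cystatin-family inhibitor of astacin proteases, had 2285 and 0 counts, and Serpina9, a serpin of clade A, had 502 and 0. The transglutaminase Tgm3, which cross-links the envelope of cornified cells, had 14506 and 0 counts, and the airway and oral protease Tmprss11a had 3970 and 0. The cornification genes Ivl (11 and 0 counts) and Flg (47 and 0) were low in the same library, while Lor had 16703 and 3.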
